A study of Mus musculus with 10 samples.

Results

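Lung RNA of mice given the compound SF-3-030 with house dust mite allergen was set against lung RNA of mice given the allergen alone, in 3 libraries of each group, 6 of the 10 libraries of the series. The libraries were taken by their column names, and all 53342 genes of the deposited table were read, of which 26235 had enough reads to be tested. The SF-3-030+HDM mice were given 10 mg/kg of SF-3-030 through the nose and allergen 30 min later. HDM mice are labelled DMSO+HDM, so they had the allergen and the solvent DMSO, and the label of the compound group does not name a solvent. In both groups mite extract was given daily by nose, 5 days each week, over 3 weeks. PBS mice, given saline, made up the other 4 libraries, share the fitted model and are quoted as the background level. Every animal is labelled a female BALB/c mouse of 12 weeks, and no group had the compound without allergen. Nothing in the labels ties a replicate to its own animal, so a p-value measures the spread between these samples, which may be technical; replicates are written as SF-3-030+HDM-1 and so on. Summed expected counts were 57277865, 55799329 and 59062738 in the SF-3-030+HDM libraries and 51889105, 58424144 and 49531210 in the HDM libraries.

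House dust mite extract inhaled over weeks is a standard way to give mice allergic airway disease. Airway epithelium answers it with alarmins such as IL-33, helper T cells and innate lymphoid cells make IL-4, IL-5 and IL-13, B cells switch to IgE, eotaxins draw eosinophils into the tissue, and goblet cells fill the airway with mucins. The ERK kinases end the RAS-RAF-MEK relay and phosphorylate, among much else, the AP-1 transcription factors of the Fos family and Myc. Cells limit the relay with Sprouty proteins and dual-specificity phosphatases, whose genes ERK itself turns on. The series title describes SF-3-030 as blocking chosen functions of the ERK kinases, and the comparison asks what the compound does to the allergen-exposed lung.

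The libraries go against their labels in ways that bear on every value below. Levels are in CPM, a gene's count scaled to the total of its library, and say nothing of gene length. H2-Ea-ps, the E alpha chain of MHC class II, which BALB/c mice make and C57BL/6 mice lack, read 392, 331 and 432 CPM in SF-3-030+HDM-1 to SF-3-030+HDM-3, against 0.107, 0.953 and 0.462 CPM in HDM-1 to HDM-3, and at most 0.860 CPM in PBS libraries. Ifi202b, an interferon-inducible DNA sensor active in some strains, read 9.97, 7.05 and 6.72 CPM in SF-3-030+HDM libraries, against 0.0385, 0 and 0.0598 CPM in HDM libraries. The reverse held for Ighg2c, the IgG2c heavy chain that C57BL/6 mice carry in place of IgG2a, with 41.0, 48.5 and 41.6 CPM in SF-3-030+HDM libraries, against 1054, 4231 and 1181 CPM in HDM libraries. H2-Ea-ps and Ifi202b therefore split the 10 libraries where the compound does. By H2-Ea-ps the 3 SF-3-030+HDM libraries read like the labelled strain and the other 7 do not.

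Of a list of 26 genes known to differ between BALB/c and C57BL/6 mice, 7 were called higher in SF-3-030+HDM (H2-Ea-ps, Tpsab1, Gbp2b, Ifi202b, Trim12c, Slamf1 and Ifi204) and 7 lower (Trim12a, Klra8, Ighg2c, Trim30d, Trim34a, Ifi205 and Klrb1c). The compound and whatever separates these genes cannot be told apart in this design, and a strain difference in any gene named below was not tested. Trim12c, Slamf1, Ifi204, Klrb1c and Ighg2c lost their calls without at least 3 single libraries each, SF-3-030+HDM-1 and SF-3-030+HDM-2 among them (adjusted p 0.0508 to 0.159), and the other 9 kept theirs without each. Without the 3 libraries with Y-linked reads described next, 4 of the list were called higher and 5 lower. The sex label did not hold in every library either. Ddx3y, a Y-linked RNA helicase, read 31.5 CPM in HDM-2, 20.4 CPM in HDM-3 and 30.2 CPM in PBS-2, and at most 0.575 CPM in the rest. Xist, made from the inactive X chromosome and named after its values were seen, read 411, 422 and 158 CPM in SF-3-030+HDM libraries, against 315, 0.835 and 2.71 CPM in HDM libraries. Each list count below is therefore also given without the 3 libraries with Y-linked reads, a fit that keeps HDM-1 as the lone HDM library and takes its spread from the other groups.

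**Figure D1:**
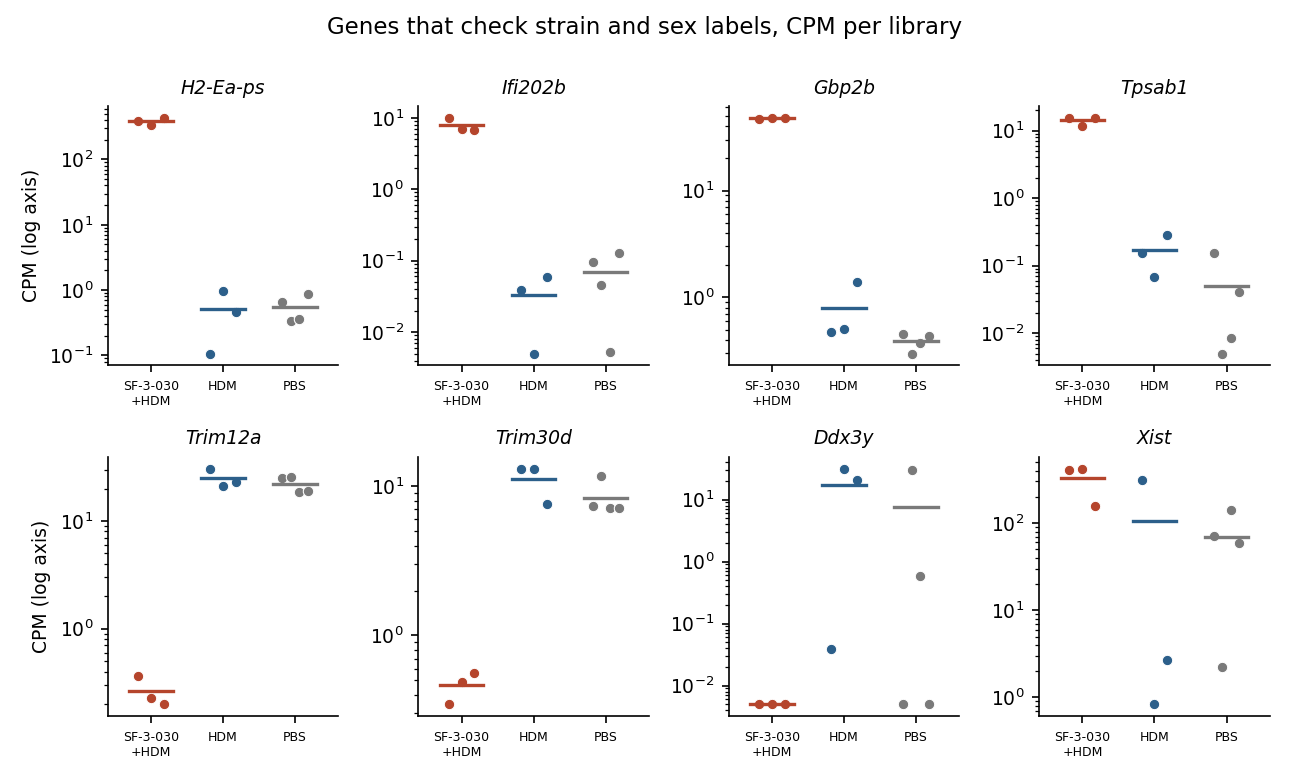
CPM per library (log axis) of genes that check the strain and sex labels; columns are SF-3-030+HDM (n = 3), HDM (n = 3) and PBS (n = 4), points are libraries, lines are group means, and levels under 0.005 CPM are drawn at 0.005. H2-Ea-ps, Ifi202b, Gbp2b and Tpsab1 are high only in the 3 SF-3-030+HDM libraries, Trim12a and Trim30d are low only there, and Ddx3y is above 10 CPM in 2 HDM libraries and 1 PBS library.

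Reads taken here as background differed between the groups as well. Olfactory and vomeronasal receptor genes, the receptors of smell, summed to 31.8, 30.2 and 15.8 CPM in SF-3-030+HDM libraries. They summed to 87.4, 110 and 222 CPM in HDM libraries and 48.0 to 453 CPM in PBS libraries. The source of these reads was not tested. Genes with any reads numbered 28929 to 30689 in SF-3-030+HDM libraries and 36334 to 39609 in HDM libraries, and ribosomal RNA took 0.379% to 1.59% of counts against 1.81% to 2.33%. Across genes, which are not independent replicates, log CPM correlated at 0.987 to 0.990 among SF-3-030+HDM libraries, at 0.957 to 0.973 among HDM libraries and at 0.923 to 0.960 between them. Lung markers were present throughout: Sftpc, surfactant protein C, read 16560 to 22510 CPM in SF-3-030+HDM libraries and 24100 to 39410 CPM in HDM libraries.

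In SF-3-030+HDM against HDM, edgeR called 901 genes higher (3.43% of those tested) and 1590 lower (6.06%) at an adjusted p under 0.05, together 9.49%. The counts of each list below are to be read beside these shares. The 2 directions were unlike in level. Of the genes called higher, 29 (3.22%) averaged under 1 CPM in both groups, whereas 859 (54.0%) of those called lower did. Receptor genes of smell held 107 of the lower calls, of 319 tested, and no higher call. The median fold among called genes was 2.69 in the higher and 21.6 in the lower direction, and the median log2 fold change of all tested genes was -0.03. Libraries did not overlap between the groups for 3974 genes higher (15.1%) and 5881 genes lower (22.4%) in SF-3-030+HDM. Without the 3 libraries with Y-linked reads the calls came to 265 higher and 278 lower, 237 and 263 of them shared with the calls above.

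**Figure D2:**
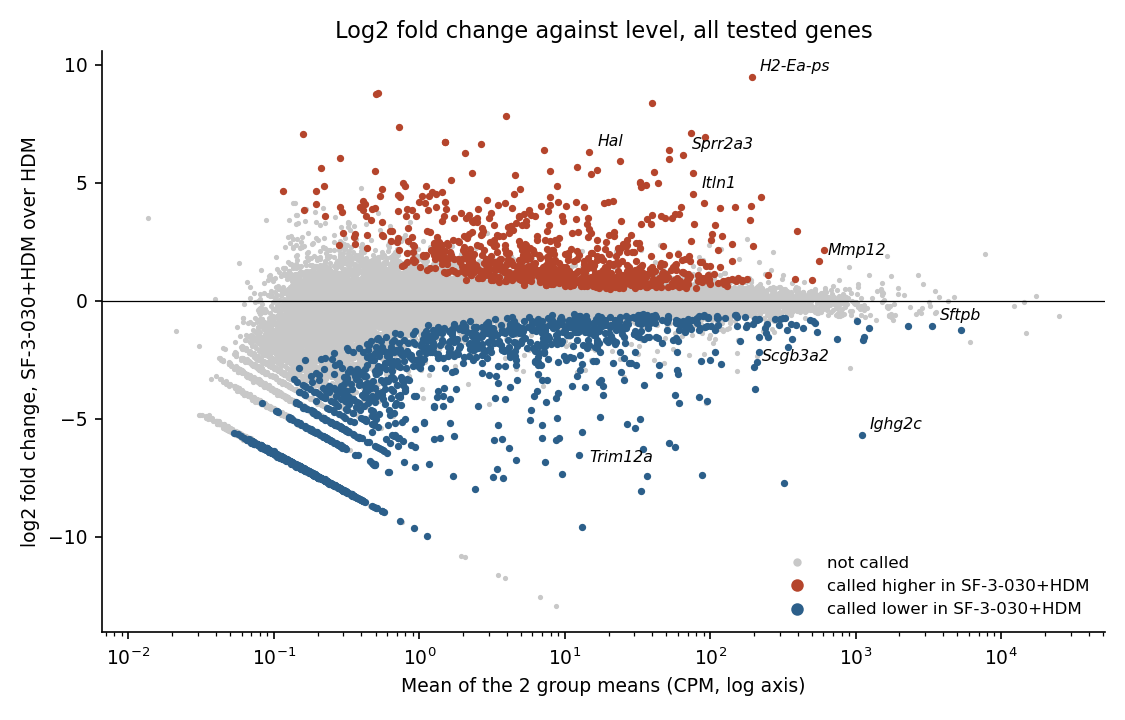
Log2 fold change of SF-3-030+HDM over HDM (y axis) against the mean of the 2 group means in CPM (x axis, log scale) for 26235 tested genes, each point a gene, coloured by its edgeR call. Lower calls crowd under 1 CPM, where 9.59% of tested genes were called lower and 0.324% higher, and the named genes mark both ends of the scale.

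Base composition moved with the fold change. Among 14689 protein-coding genes at 1 CPM or more, cut into 10 bins of nearly equal size by the GC content of the longest transcript, the median log2 fold change was 0.36 in the bin of lowest GC (31.0% to 41.5%) and -0.10 in the highest (57.9% to 74.7%). Higher calls made up 5.85% of the lowest bin and 1.84% of the highest, and lower calls 3.06% and 6.33%. Genes called higher had a median GC of 47.6%, genes called lower 53.1% and uncalled genes 49.9%. A correction for GC, added after the data were seen, left 693 higher and 1464 lower calls.

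**Figure D3:**
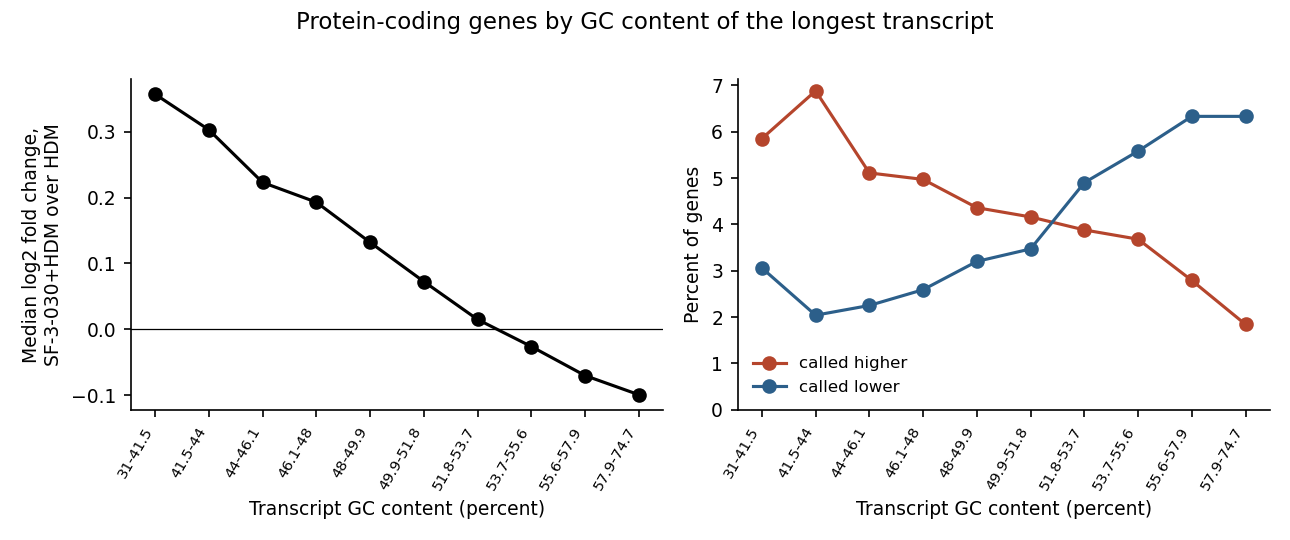
Left, median log2 fold change of SF-3-030+HDM over HDM in 10 bins of transcript GC content; right, the percent of genes in each bin called higher or lower. The median declines bin by bin, to -0.10 in the highest bin, and the lines of higher and lower calls cross near the middle of the range.

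The largest rises outside the strain list included those of Hal, Sprr2a3 and Cxcl5. Hal, histidine ammonia-lyase of skin and liver, stood at 32.3, 22.6 and 32.7 CPM in SF-3-030+HDM libraries, against 0.233, 0.395 and 0.469 CPM in HDM libraries (log2 6.30 ± 0.37 SE, adjusted p = 4.2e-06). Sprr2a3, a small proline-rich protein of cornified epithelium, stood at 166, 82.6 and 137 CPM, against 0.0514, 1.35 and 3.92 CPM in HDM (6.17 ± 0.87, adjusted p = 0.00146). In both genes every SF-3-030+HDM library lay more than an order of magnitude above every HDM library. Cxcl5, a neutrophil chemokine, stood at 18.2, 43.6 and 36.1 CPM, against 0.311, 0.158 and 1.71 CPM in HDM (5.53 ± 0.86, adjusted p = 0.00287). The other rises among the 12 largest were in Ifi44l, an interferon-stimulated gene (6.75 ± 0.85), the potassium channel gene Kcnj14 (6.25 ± 0.80), the serine protease inhibitor genes Serpina1d (5.01 ± 1.01) and Serpina3i (4.93 ± 0.49), Fbp2, a fructose bisphosphatase of muscle (4.88 ± 0.24), and AY761185, with Ifi202b, Tpsab1 and Gbp2b of the strain list. H2-Ea-ps, at 9.48 ± 0.67, is annotated as a pseudogene, a class left out of this ranking with predicted genes and variable segments. AY761185 had 175 counts over the SF-3-030+HDM group and none over the HDM group, which makes it at least 54.2-fold higher against a floor of 3 counts over the group. Of these 12, Serpina1d alone lost its call without a single library, SF-3-030+HDM-1 or SF-3-030+HDM-3 (adjusted p 0.0520 and 0.0546). With a term for Y-linked expression or for olfactory and vomeronasal background, Serpina1d and AY761185 lost their calls. AY761185 also lost its call without the libraries with Y-linked reads. Serpin genes have near-identical copies, and reads assigned to any one of them are uncertain.

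The largest falls were of 2 kinds. Some genes were at a steady level in all HDM and PBS libraries and nearly silent in SF-3-030+HDM. Ankrd63, an ankyrin repeat gene, read 0.140, 0.0364 and 0.203 CPM in SF-3-030+HDM libraries, against 20.2, 14.4 and 9.13 CPM in HDM libraries (-6.83 ± 0.48, adjusted p = 1.01e-05). Spink5, which encodes the epithelial protease inhibitor LEKTI, read 0.0698, 0 and 0.0339 CPM, against 6.97, 7.33 and 4.94 CPM in HDM (-7.47 ± 0.58, adjusted p = 2.38e-05). Trim12a, AC123830.1 and Cldn34c1 had the same pattern. AC123830.1 had 1 count over the SF-3-030+HDM group and 361 over the HDM group, a ratio of 389 (95% counting interval 69.3 to 15400), and Cldn34c1 1 and 293, a ratio of 316 (56.2 to 12500).

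The others among the 12 largest falls, Sall4, Vmn1r173, Duxf3, AW822073, Trim71, Hecw1 and Dbpht2, were low everywhere and uneven. Each was highest among HDM libraries in replicate 3, which also had the most reads on receptors of smell. Sall4, a transcription factor of stem cells, had no counts in SF-3-030+HDM and 230 over the HDM group (at least 82.6-fold lower), read as 0.325, 1.21 and 2.88 CPM in the HDM libraries. Vmn1r173, a vomeronasal receptor, had none against 178 (at least 63.9-fold lower). Of these 7 genes, Duxf3 kept its call without each single library, and the other 6 lost it without any SF-3-030+HDM library, Sall4 and Hecw1 also without HDM-2 or HDM-3 and Dbpht2 without HDM-3 (adjusted p 0.0513 to 0.113).

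Among highly read genes, the 8 with the highest level that were called higher included Pigr, the receptor that carries IgA across epithelium, at 881, 889 and 1195 CPM in SF-3-030+HDM libraries, against 261, 167 and 238 CPM in HDM libraries (2.16 ± 0.40, adjusted p = 0.00828). Serpina3g, a protease inhibitor of activated leukocytes, stood at 664, 625 and 818 CPM, against 42.0, 95.5 and 133 CPM in HDM (2.94 ± 0.54, adjusted p = 0.00749). Tpm3-rs7, a copy of a tropomyosin gene, stood at 358, 341 and 333 CPM, against 24.0, 28.6 and 43.5 CPM in HDM (3.41 ± 0.22, adjusted p = 7.21e-06). None of the 3 calls hung on a single library, and a processed copy such as Tpm3-rs7 shares sequence with its parent. Pigr and Serpina3g lost their calls with a term for olfactory and vomeronasal background. Pigr also lost its call without the libraries with Y-linked reads. Spp1, osteopontin, rose (1.11 ± 0.20, adjusted p = 0.00705) and so did Ctsl, cathepsin L (0.93 ± 0.24, adjusted p = 0.0387). Ctsl lost its call without PBS-4 or any HDM or SF-3-030+HDM library (0.0510 to 0.120).

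Genes of the ERK relay and its transcription factors were called higher at 0% to 8.7% of each list, and none was called lower. Of 26 RAS-RAF-MEK-ERK cascade genes 1 was called higher and none lower, of 23 ERK feedback genes 2 higher and none lower, of 20 AP-1 genes none in either direction, and of 21 other immediate early genes 1 higher, against 3.43% higher and 6.06% lower of all tested genes. Their median log2 fold changes were 0.14, 0.01, 0.06 and 0.03. Without the libraries with Y-linked reads the cascade, feedback and AP-1 lists had no call and the immediate early list 2 higher. Of the AP-1 genes 4 were higher and 1 lower at an unadjusted p under 0.05 in edgeR, DESeq2 called 2 higher and 1 lower, and limma-voom called none. With upper-quartile scaling the cascade, feedback, AP-1 and immediate early medians turned to -0.01, -0.12, -0.08 and -0.14, under a shift of all genes to -0.19. A transcript level is not a measure of kinase activity or of protein phosphorylation.

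Fos, the founding AP-1 member, read 45.2, 56.8 and 29.2 CPM in SF-3-030+HDM libraries, against 44.0, 75.4 and 61.3 CPM in HDM libraries (-0.52 ± 0.76, adjusted p = 0.695). Fosl1, which encodes Fra-1, read 1.59, 2.47 and 1.38 CPM, against 1.48, 1.67 and 1.45 CPM in HDM (0.20 ± 0.34, adjusted p = 0.741). For both genes the groups overlapped. Egr1, an immediate early factor that ERK turns on, read 31.4, 43.1 and 29.0 CPM, against 34.4, 137 and 110 CPM in HDM (-1.50 ± 0.93, adjusted p = 0.31). The 2 high HDM values of Egr1 are the libraries with Y-linked reads, and in PBS it ran from 14.9 to 401 CPM. Mapk3, which encodes ERK1, stood at -0.13 ± 0.18 (adjusted p = 0.669).

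Spry4, a Sprouty inhibitor of the relay, was the feedback gene with the clearest change. It read 38.4, 44.2 and 33.3 CPM in SF-3-030+HDM libraries, against 16.3, 13.5 and 20.5 CPM in HDM libraries and 22.9 ± 6.40 CPM in PBS (SD, n = 4), and was called higher (1.19 ± 0.25, adjusted p = 0.0174). All 3 SF-3-030+HDM values lay above all 3 HDM values. Spry4 lost its call without HDM-2 or SF-3-030+HDM-1 or SF-3-030+HDM-2 (0.0572 to 0.0797) and with a term for olfactory and vomeronasal background. Dusp10, a phosphatase of stress kinases (0.75 ± 0.21, adjusted p = 0.0469), and Myc (0.80 ± 0.23, adjusted p = 0.0499) were just inside the threshold. Both lost their calls without any SF-3-030+HDM library, without HDM-1 or HDM-2 and without PBS-3 or PBS-4, Dusp10 also without HDM-3 and Myc without PBS-2 (0.0514 to 0.152). Both also lost them with all PBS libraries left out of the fit, with upper-quartile scaling and with no filter on low counts. Dusp6, a phosphatase of ERK, stood at 80.2, 103 and 80.7 CPM, against 67.5, 57.4 and 74.1 CPM in HDM (0.39 ± 0.24, adjusted p = 0.313).

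AP-1 binds the letters TGANTCA, so promoters were searched for them on both strands in 300 bases around the start of each protein-coding gene at 1 CPM or more, using RefSeq sequences of GRCm38.p6. Of 11294 genes with a match in RefSeq among 14690, 6.76% held the motif, and so did 9.09% of 495 genes called higher and 10.3% of 407 called lower. The STAT6 motif, read downstream of IL-4 and IL-13, stood in 9.90% of genes called higher, 5.41% of those called lower and 6.57% of all. The CRE letters TGACGTCA stood in 1.21%, 3.44% and 3.38%. The 4 promoters with an AP-1 motif near the start shown here were chosen because their genes recur below: matrix enzymes Mmp12 and Mmp13, the cytokine gene Il1a and the surfactant gene Sftpb, all picked after their values were seen. Capitals mark the motif, and each run reads 5′ to 3′ on the strand of the gene.
Mmp12, second RefSeq start, chr9:7347124-7347423, plus strand, motif from base -44: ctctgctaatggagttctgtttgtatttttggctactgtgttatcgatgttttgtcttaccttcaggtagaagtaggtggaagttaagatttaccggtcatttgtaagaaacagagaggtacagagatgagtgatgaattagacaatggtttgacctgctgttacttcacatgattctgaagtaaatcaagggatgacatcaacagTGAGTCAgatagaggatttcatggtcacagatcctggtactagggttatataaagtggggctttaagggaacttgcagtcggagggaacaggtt
Mmp13, chr9:7272264-7272563, plus strand, motif from base -35: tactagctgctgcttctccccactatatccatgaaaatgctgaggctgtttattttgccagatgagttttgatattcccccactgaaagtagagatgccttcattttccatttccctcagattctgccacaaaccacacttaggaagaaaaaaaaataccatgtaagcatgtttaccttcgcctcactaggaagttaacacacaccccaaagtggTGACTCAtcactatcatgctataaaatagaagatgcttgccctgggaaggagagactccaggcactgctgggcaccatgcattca
Il1a, chr2:129309923-129310222, minus strand, motif from base -12: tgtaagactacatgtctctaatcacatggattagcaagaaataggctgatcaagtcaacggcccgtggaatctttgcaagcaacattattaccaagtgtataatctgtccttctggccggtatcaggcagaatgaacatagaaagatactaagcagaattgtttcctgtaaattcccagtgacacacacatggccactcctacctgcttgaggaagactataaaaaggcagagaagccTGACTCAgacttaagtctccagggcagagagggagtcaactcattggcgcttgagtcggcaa
Sftpb, chr6:72304360-72304659, plus strand, motif from base -18: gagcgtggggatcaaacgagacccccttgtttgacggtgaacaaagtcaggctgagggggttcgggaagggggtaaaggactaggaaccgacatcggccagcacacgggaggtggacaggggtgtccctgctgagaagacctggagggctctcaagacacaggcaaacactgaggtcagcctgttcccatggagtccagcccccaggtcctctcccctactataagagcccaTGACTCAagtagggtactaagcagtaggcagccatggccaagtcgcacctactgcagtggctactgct
The first RefSeq start of Mmp12, in chr9:7344147-7344446, holds none of the 3 motifs. Of the 4 genes shown, Mmp12, Mmp13 and Il1a were called higher and Sftpb lower. A match of letters is a description and not a site of binding.

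Type 2 genes stood higher with the compound. Of 15 type 2 cytokine, receptor and transcription factor genes tested 5 were called higher and none lower, and the median log2 fold change was 0.71, against -0.03 for all tested genes. Il13, the cytokine that drives mucus and airway narrowing, read 5.70, 7.60 and 4.60 CPM in SF-3-030+HDM libraries, against 0.189, 0.403 and 1.98 CPM in HDM libraries (2.79 ± 0.78, adjusted p = 0.0461). Il4 read 1.95, 1.58 and 1.66 CPM, against 0.800, 0.457 and 0.703 CPM in HDM (1.38 ± 0.39, adjusted p = 0.0476). The groups did not overlap for either gene. Il13ra2, the decoy receptor of IL-13, read 5.18, 6.17 and 2.97 CPM, against 0.0713, 0.137 and 0.741 CPM in HDM (3.88 ± 0.86, adjusted p = 0.021). Il5ra, a chain of the IL-5 receptor (1.64 ± 0.36, adjusted p = 0.0212), and Gata3, the factor of type 2 T cells (0.71 ± 0.18, adjusted p = 0.0347), also rose. Il5 read 0.819, 1.08 and 0.762 CPM, against 0.121, 0.0941 and 0.505 CPM in HDM, and was not called (1.91 ± 0.71, adjusted p = 0.103; 0.0395 without HDM-3).

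These 5 calls rest on few libraries. Il13 and Il4 lost theirs without PBS-4, HDM-1 or HDM-2 or any SF-3-030+HDM library, Il4 also without HDM-3 (0.0507 to 0.149). Il13ra2 and Il5ra lost theirs without HDM-2 or SF-3-030+HDM-1 or SF-3-030+HDM-2, Il5ra also without HDM-3 (0.0636 to 0.101). Gata3 lost its call without PBS-4, any HDM library or SF-3-030+HDM-1 or SF-3-030+HDM-2 (0.0513 to 0.127). Without the libraries with Y-linked reads 1 of the list was called higher, at a median of 0.79, and over all alternatives the count of higher members ran from 0 to 6. Il1rl1, the receptor of IL-33 called ST2, was steadier: it read 33.4, 36.8 and 26.0 CPM in SF-3-030+HDM libraries, against 10.5, 4.84 and 8.68 CPM in HDM libraries and 4.51 ± 0.481 CPM in PBS (1.99 ± 0.25, adjusted p = 0.000657). It kept its call under every alternative run and was the 1 higher call of 7 alarmin and alarmin receptor genes (median 0.66; 1 without the libraries with Y-linked reads).

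Mast cell genes rose together. Of 16 tested mast cell and basophil genes 10 were called higher and none lower, with a median log2 fold change of 2.52, and 7 were higher without the libraries with Y-linked reads. The list summed to 552, 581 and 621 CPM in SF-3-030+HDM libraries, against 374, 312 and 360 CPM in HDM libraries. In RNA of a whole organ, more cells of a type and more RNA per cell cannot be told apart. Cpa3, mast cell carboxypeptidase (ENSMUSG00000001865, chr3:20215620-20242181), read 5.54, 4.47 and 4.04 CPM in SF-3-030+HDM libraries, against 0.611, 0.641 and 0.708 CPM in HDM libraries and 1.03 ± 0.107 CPM in PBS (2.81 ± 0.25, adjusted p = 6e-05). The HDM libraries were nearly level and all 3 SF-3-030+HDM libraries stood far above them.

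The mast cell proteases followed. Mcpt4, the chymase of connective tissue mast cells, read 6.59, 7.36 and 8.96 CPM in SF-3-030+HDM libraries, against 0.385, 0.856 and 1.29 CPM in HDM libraries (3.16 ± 0.42, adjusted p = 0.000974). Mcpt1 (3.38 ± 0.61, adjusted p = 0.00697) and Mcpt2 (3.28 ± 0.51, adjusted p = 0.00296), of mucosal mast cells, rose as well. Cma1 (2.40 ± 0.39) and the tryptase gene Tpsb2 (3.38 ± 0.59) also rose and, like Mcpt1, Mcpt2, Mcpt4 and Cpa3, kept their calls without each single library. With a term for Y-linked expression Cma1 and Tpsb2 lost theirs. Tpsab1, a tryptase that C57BL/6 mice lack, is on the strain list as well, at 15.3, 11.9 and 15.4 CPM against 0.154, 0.0685 and 0.281 CPM in HDM. The IgE receptor chains Fcer1a (2.33 ± 0.45, adjusted p = 0.0102) and Ms4a2 (2.65 ± 0.69, adjusted p = 0.0381) and the factor Mitf (0.85 ± 0.24, adjusted p = 0.048) were called higher too. All 3 lost the call without SF-3-030+HDM-1, Ms4a2 and Mitf also without PBS-4, HDM-3 and SF-3-030+HDM-2, Ms4a2 without HDM-1, and Mitf without PBS-2, HDM-2 or SF-3-030+HDM-3 (0.0511 to 0.149). Protease genes of this family are close copies, so the split of reads among them is uncertain.

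Eosinophil genes were called higher at 16.7% and lower at 8.33%, against 3.43% and 6.06% of all tested genes. The lower share is 1 gene, Ear1, which is also on the lung macrophage list. Of 12 tested 2 were called higher and 1 lower (median 0.63), and 1 and 1 without the libraries with Y-linked reads. Epx, eosinophil peroxidase, read 2.24, 1.72 and 2.75 CPM in SF-3-030+HDM libraries, against 0.161, 0.0735 and 0.0808 CPM in HDM libraries (4.44 ± 0.56, adjusted p = 0.000721). Ear1, a ribonuclease that alveolar macrophages also make, read 1.36, 0.875 and 1.83 CPM, against 19.2, 17.5 and 4.35 CPM in HDM (-3.35 ± 0.59, adjusted p = 0.00605). Neither call hung on a single library, and Il5ra was the other gene called higher.

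The eotaxin and type 2 chemokine list had 2 of 9 called higher and none lower, with a median of 1.03, and 3 higher without the libraries with Y-linked reads. Ccl11, eotaxin 1, which draws eosinophils through CCR3, read 207, 174 and 160 CPM in SF-3-030+HDM libraries, against 8.29, 23.7 and 41.4 CPM in HDM libraries and 5.11 ± 3.45 CPM in PBS (2.85 ± 0.62, adjusted p = 0.0193). Ccl8, a CCR8 ligand in mice, read 320, 241 and 419 CPM, against 36.2, 60.6 and 99.9 CPM in HDM (2.31 ± 0.47, adjusted p = 0.0149). Neither gene's groups overlapped. Ccl11 and Ccl8 both lost their calls without HDM-2 or SF-3-030+HDM-3, and Ccl11 also without SF-3-030+HDM-1 or SF-3-030+HDM-2 (0.0505 to 0.0708). Both calls were also lost with a term for olfactory and vomeronasal background. Ccl24, eotaxin 2, read 29.1, 37.3 and 28.8 CPM, against 0.341, 2.26 and 32.8 CPM in HDM, where replicate 3 reached the level of the compound group (1.45 ± 1.01, adjusted p = 0.375; 0.00496 without HDM-3).

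Other chemokines split. Of 15 CXC chemokine genes 4 were called higher and 2 lower (median 0.50; 3 and 1 without the libraries with Y-linked reads). Besides Cxcl5, Cxcl13, which draws B cells to follicles, rose to 52.1, 54.2 and 58.9 CPM in SF-3-030+HDM libraries, against 5.57, 12.6 and 11.1 CPM in HDM libraries (2.46 ± 0.41, adjusted p = 0.00469). The neutrophil chemokine genes Cxcl3 (2.04 ± 0.38, adjusted p = 0.00863) and Cxcl1 (2.15 ± 0.51, adjusted p = 0.0266) rose, Cxcl1 not without HDM-1 or HDM-2 or any SF-3-030+HDM library (0.0599 to 0.0916). Cxcl3 kept its call without each single library and lost it without the libraries with Y-linked reads. Ppbp, of platelets (-2.40 ± 0.38, adjusted p = 0.003), and Cxcl14, of epithelium (-1.17 ± 0.25, adjusted p = 0.0182), fell, Cxcl14 not without HDM-2 or any SF-3-030+HDM library (0.0534 to 0.0954). Of 16 other CC and CX3C chemokine genes none was called higher and 4 lower (median -0.17; 1 higher and 1 lower without the libraries with Y-linked reads). Those 4 were Ccl27a of epithelium (-2.17 ± 0.29, adjusted p = 0.00101), Ccl19 (-2.03 ± 0.39) and Ccl21a (-0.75 ± 0.21), which guide cells into lymphoid tissue, and Cx3cl1, fractalkine (-0.65 ± 0.16). Ccl27a kept its call without each single library. Ccl19, Ccl21a and Cx3cl1 lost theirs without HDM-2 or SF-3-030+HDM-1 or SF-3-030+HDM-2, Ccl21a also without PBS-4 or HDM-1 or HDM-3 and Cx3cl1 without HDM-3 or SF-3-030+HDM-3 (0.05 to 0.172).

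**Figure D4:**
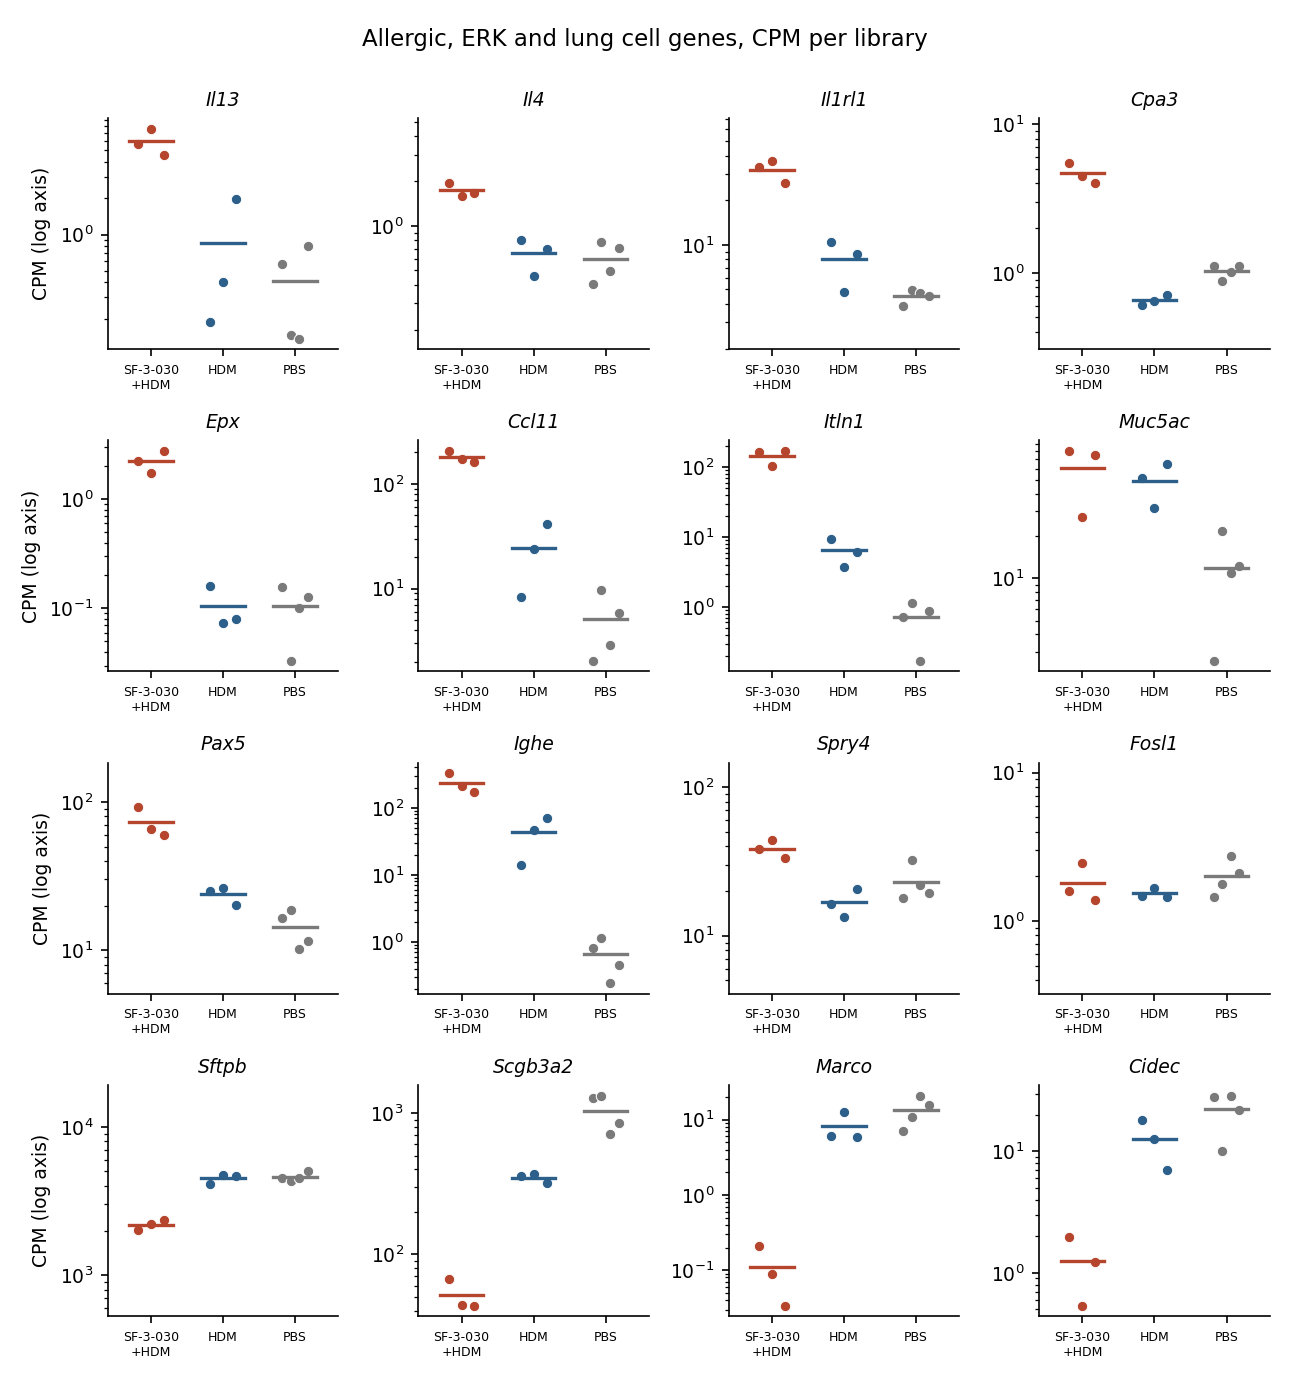
CPM per library (log axis) of 16 genes; columns are SF-3-030+HDM (n = 3), HDM (n = 3) and PBS (n = 4), points are libraries and lines group means. Il13, Il4, Il1rl1, Cpa3, Epx, Ccl11, Itln1, Pax5, Ighe and Spry4 have all 3 SF-3-030+HDM libraries above all HDM libraries, Muc5ac and Fosl1 overlap, and Sftpb, Scgb3a2, Marco and Cidec have them below.

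The called members of the neutrophil and pro-inflammatory lists were all higher, at 15.8% and 13.6% of each list, against 3.43% of all tested genes. Of 19 neutrophil genes 3 rose and none fell (median 0.63; 1 without the libraries with Y-linked reads). Cxcr2, the receptor of the CXC chemokines above, read 18.3, 16.8 and 17.8 CPM in SF-3-030+HDM libraries, against 6.60, 4.21 and 5.67 CPM in HDM libraries (1.68 ± 0.29, adjusted p = 0.00537). Its call was lost with a term for olfactory and vomeronasal background. Retnlg (1.71 ± 0.41) and Csf3r, the receptor of G-CSF (1.42 ± 0.37), lost their calls without HDM-2 or any SF-3-030+HDM library, Csf3r also without HDM-3 (0.0514 to 0.121). Of 22 pro-inflammatory cytokine and NF-kB target genes 3 rose and none fell (median 0.51; 2 higher and 1 lower without the libraries with Y-linked reads). Il1a, interleukin-1 alpha, read 13.9, 13.4 and 9.58 CPM, against 5.04, 3.01 and 2.86 CPM in HDM (1.73 ± 0.28, adjusted p = 0.00324). It kept its call without each single library and lost it without the libraries with Y-linked reads. Il12a (1.66 ± 0.35) lost its call without HDM-2 or SF-3-030+HDM-1 or SF-3-030+HDM-2, and Il1rn, the IL-1 antagonist (1.34 ± 0.34), without any HDM or SF-3-030+HDM library (0.0631 to 0.107). Of 26 T cell genes edgeR called none in either direction, at a median of 0.02 (-0.12 with upper-quartile scaling), and none without the libraries with Y-linked reads. At an unadjusted p under 0.05, 4 were higher and none lower, DESeq2 called 2 higher and limma-voom none. Of 15 cytotoxic and natural killer cell genes Gzma (1.09 ± 0.29) and Ncr1 (1.54 ± 0.34) were called higher and Klrb1c, which differs between strains, lower (-1.02 ± 0.28), at a list median of 0.09 (-0.07 with upper-quartile scaling; 1 higher without the libraries with Y-linked reads). Each of these 3 lost its call without HDM-3 or SF-3-030+HDM-1 or SF-3-030+HDM-2, Gzma and Klrb1c also without HDM-2 or SF-3-030+HDM-3, Gzma and Ncr1 without HDM-1, and Gzma without PBS-4 (0.0506 to 0.159).

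B cell genes rose in 10 of 18 tested, with none lower and a median log2 fold change of 0.93. Without the libraries with Y-linked reads 3 were called higher, at a median of 1.14. The list summed to 1588, 1186 and 1218 CPM in SF-3-030+HDM libraries, against 627, 843 and 676 CPM in HDM libraries. Pax5, the factor that keeps B cell identity, read 92.0, 66.0 and 60.2 CPM in SF-3-030+HDM libraries, against 25, 26.2 and 20.1 CPM in HDM libraries and 14.3 ± 4.09 CPM in PBS (1.57 ± 0.25, adjusted p = 0.00308). Cr2, the complement receptor of mature B cells, read 38.3, 25.5 and 21.3 CPM, against 10.5, 9.16 and 5.11 CPM in HDM (1.74 ± 0.29, adjusted p = 0.00465). Pax5 and Cr2 kept their calls without each single library. Ms4a1, which encodes CD20, rose (1.30 ± 0.25, adjusted p = 0.0101). It lost its call without SF-3-030+HDM-1 (0.0534) and with a term for olfactory and vomeronasal background. Higher calls were also made for Cd22 (0.97), Cd72 (0.70), Fcer2a, the low-affinity IgE receptor (1.69), Tnfrsf13c, the BAFF receptor (1.52), Ebf1 (0.92) and Fcmr (0.93). These 6 lost their calls without SF-3-030+HDM-1 and, other than Ebf1, without SF-3-030+HDM-3 or HDM-3. Cd72, Fcer2a, Tnfrsf13c and Fcmr also lost theirs without HDM-1 or SF-3-030+HDM-2, Cd72 and Ebf1 without HDM-2, and Cd72 and Fcmr without PBS-4 (0.0527 to 0.144).

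Plasma cell and antibody genes were called in both directions, at 13.6% higher and 9.09% lower, against 3.43% and 6.06% of all tested genes. Of 22 plasma cell and immunoglobulin constant region genes 3 were called higher and 2 lower (median -0.05; 3 and 1 without the libraries with Y-linked reads), and immunoglobulin genes took 3.84%, 5.34% and 3.13% of counts in SF-3-030+HDM libraries, against 3.97%, 8.12% and 4.54% in HDM libraries. Ighe, the IgE heavy chain, read 326, 214 and 173 CPM in SF-3-030+HDM libraries, against 14.2, 47.2 and 70.3 CPM in HDM libraries and 0.670 ± 0.403 CPM in PBS (2.39 ± 0.55, adjusted p = 0.0246). The groups did not overlap, and the call was lost without HDM-2 or SF-3-030+HDM-1 or SF-3-030+HDM-2 (0.0650 to 0.0896). Ighd, the IgD chain of naive B cells, rose (1.64 ± 0.32, adjusted p = 0.0121; 0.0616 without SF-3-030+HDM-1), and so did the coactivator gene Pou2af1 (1.10 ± 0.27, adjusted p = 0.0322), which lost its call without HDM-1 or HDM-3 or any SF-3-030+HDM library (0.0715 to 0.104). Ighe, Ighd and Pou2af1 also lost their calls with a term for olfactory and vomeronasal background. Ighg1, the main IgG of type 2 responses, overlapped, at 13680, 20240 and 9117 CPM against 11750, 17840 and 13100 CPM in HDM (-0.04 ± 0.64, adjusted p = 0.975). Ighg2c (-5.70 ± 1.57, adjusted p = 0.0438) and Ighg3 (-2.54 ± 0.72, adjusted p = 0.0475) fell. Both lost their calls without HDM-1 or HDM-2 or any SF-3-030+HDM library, and Ighg2c also without HDM-3 (0.0530 to 0.159). Ighg2c is on the strain list, and strain and compound cannot be told apart in its fall.

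Goblet cell genes were called higher at 16.0% and lower at 4.0%, against 3.43% and 6.06% of all tested genes. The lower share is 1 gene, Ang, and is under that of all tested genes. Among 25 genes of goblet cells and mucus, edgeR called 4 higher and 1 lower (median 0.50; 3 and 1 without the libraries with Y-linked reads). Itln1, the lectin intelectin 1, read 166, 104 and 171 CPM in SF-3-030+HDM libraries, against 9.54, 3.72 and 6.02 CPM in HDM libraries and 0.726 ± 0.406 CPM in PBS (4.53 ± 0.51, adjusted p = 0.000319). Ang, an antimicrobial ribonuclease, read 8.06, 7.38 and 8.26 CPM, against 29.5, 28.0 and 22.6 CPM in HDM (-1.78 ± 0.18, adjusted p = 0.000148). Both kept their calls under every alternative run. The intelectin locus differs between mouse strains, and its part in the strain pattern above was not tested. The trefoil factor gene Tff1 (3.57 ± 0.74, adjusted p = 0.0154) and Agr2, which folds mucins (1.72 ± 0.47, adjusted p = 0.0437), rose with Pigr. Tff1 and Agr2 lost their calls without HDM-2 or SF-3-030+HDM-1 or SF-3-030+HDM-3, Agr2 also without PBS-4 or HDM-1 or HDM-3 (0.0544 to 0.147). Muc5ac, the mucin of allergic airways, read 80.5, 27.3 and 75.5 CPM, against 52.0, 31.8 and 64.9 CPM in HDM (0.31 ± 0.61, adjusted p = 0.778). Clca1, its companion in goblet cells, read 3713, 886 and 2558 CPM, against 1005, 1217 and 1178 CPM in HDM (1.05 ± 0.77, adjusted p = 0.399). In both genes SF-3-030+HDM-2 was the lowest of the 6 libraries.

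Of 19 alveolar type 2 cell and surfactant genes 5 were called lower and none higher, at a median of -0.51. Sftpb, surfactant protein B, read 2006, 2227 and 2338 CPM in SF-3-030+HDM libraries, against 4131, 4719 and 4650 CPM in HDM libraries and 4599 ± 312 CPM in PBS (-1.06 ± 0.18, adjusted p = 0.00465), and kept its call without each single library. The surfactant protease gene Napsa (-1.0 ± 0.20, adjusted p = 0.0129), the lipid enzyme genes Lpcat1 (-0.98 ± 0.25) and Fasn (-0.86 ± 0.23) and Lyz2, lysozyme of macrophages and type 2 cells (-1.25 ± 0.25, adjusted p = 0.0118), fell as well. These 4 lost their calls without SF-3-030+HDM-1 or SF-3-030+HDM-2, and other than Napsa without HDM-2, Lpcat1 and Fasn without HDM-1, and Fasn without HDM-3 or PBS-4 (0.0518 to 0.160). Without the libraries with Y-linked reads none of the list was called, at a median of -0.49. Sftpc, given above, did not overlap between the groups and was not called by edgeR (-0.64 ± 0.22, adjusted p = 0.084; -0.22 without those libraries), and was called lower by DESeq2 (adjusted p = 0.0214).

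Of 16 club and airway secretory cell genes 3 were called lower and none higher (median -0.42), and 3 lower without the libraries with Y-linked reads. Scgb3a2, a secretoglobin of small airways, read 67.1, 43.7 and 43.5 CPM in SF-3-030+HDM libraries, against 356, 368 and 322 CPM in HDM libraries and 1040 ± 307 CPM in PBS (-2.80 ± 0.26, adjusted p = 7.99e-05). It kept its call under every alternative run. Cyp2f2, the club cell cytochrome P450, fell (-1.15 ± 0.28, adjusted p = 0.032), not without HDM-2 or any SF-3-030+HDM library (0.0912 to 0.130), while Scgb1a1, the chief club cell secretoglobin, stood at 22240, 17380 and 16980 CPM against 14480, 18960 and 14820 CPM in HDM (0.19 ± 0.27, adjusted p = 0.678). Of 14 alveolar type 1 genes Aqp5, a water channel, was called lower (-1.15 ± 0.20, adjusted p = 0.00545), the 1 call of its list (median -0.32; none without the libraries with Y-linked reads). Of 22 motile cilium genes Foxj1, their master factor, was called lower (-0.74 ± 0.20, adjusted p = 0.0417), the 1 call there (median -0.31; none without those libraries), and it lost the call without PBS-4, HDM-2 or HDM-3 or any SF-3-030+HDM library (0.0502 to 0.158). Of 10 basal cell genes Krt5 (1.76 ± 0.35) and Trp63 (2.01 ± 0.54) were called higher (median 0.62; none without those libraries). Krt5 lost its call without HDM-2 or SF-3-030+HDM-1 and Trp63 without any HDM or SF-3-030+HDM library (0.0536 to 0.119). The type 1 and cilium shares, 7.14% and 4.55% lower, are near the 6.06% of all tested genes called lower. Aqp5 lost its call with a term for Y-linked expression or for olfactory and vomeronasal background. Cytochrome P450 genes, some of them of the airway, had 1 of 18 higher and 3 lower (median -0.39; 1 and 1 without those libraries), and Cyp7b1, which hydroxylates oxysterols, was the gene that rose (1.45 ± 0.23, adjusted p = 0.00374). Besides Cyp2f2, Cyp2e1 (-2.01 ± 0.57) and Cyp4a12b (-3.84 ± 0.89) fell and lost their calls without HDM-1 or HDM-2 or SF-3-030+HDM-1 or SF-3-030+HDM-2, Cyp2e1 also without PBS-4 or SF-3-030+HDM-3 (0.0518 to 0.153).

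Among 22 macrophage genes induced by IL-4 or IL-13, 2 were called higher, Ccl8 and Mmp12, and none lower (median 0.45; 5 higher without the libraries with Y-linked reads). Mmp12, the macrophage elastase, read 790, 852 and 940 CPM in SF-3-030+HDM libraries, against 262, 189 and 345 CPM in HDM libraries and 9.81 ± 5.55 CPM in PBS (1.70 ± 0.46, adjusted p = 0.0427), and lost its call without any HDM or SF-3-030+HDM library (0.0735 to 0.128). Ccl8 lost its call without HDM-2 or SF-3-030+HDM-3 (0.0568 and 0.0612) and with a term for olfactory and vomeronasal background. Arg1, arginase 1, read 188, 165 and 231 CPM, against 11.4, 17.2 and 99.7 CPM in HDM, without overlap, and just missed the threshold in edgeR (2.21 ± 0.64, adjusted p = 0.0524). It was called by DESeq2 (adjusted p = 0.0337) and limma-voom (0.015), and by edgeR with no filter (0.0141), with the replicate block (0.0393), without the libraries with Y-linked reads (0.00187), without HDM-3 (0.000363) and without PBS-1 (0.0453). Chil3, a chitinase-like protein, overlapped between the groups (0.17 ± 0.42, adjusted p = 0.827). Of 24 genes that mark lung macrophages 4 were called lower and none higher (median -0.40; 3 lower without the libraries with Y-linked reads): Marco, Ear1, Lyz2 and Fabp1. The general macrophage genes Cd68, Adgre1, Csf1r, C1qa, C1qb and C1qc were not called, and the difference between the 2 lists was not tested. Marco, a scavenger receptor of alveolar macrophages, read 0.209, 0.0896 and 0.0339 CPM, against 6.11, 12.5 and 5.91 CPM in HDM and 13.7 ± 5.97 CPM in PBS (-6.25 ± 0.66, adjusted p = 0.000197), and kept its call under every alternative run. Fabp1 (-3.10 ± 0.76) lost its call without HDM-1 or HDM-2 or any SF-3-030+HDM library (0.0695 to 0.116). Of 25 monocyte and dendritic cell genes Cd40 (1.15 ± 0.20, adjusted p = 0.00543) and Siglech (1.53 ± 0.37) were called higher and Flt3 lower (-1.06 ± 0.26), at a list median of -0.02 (1 higher without those libraries). These shares are 8.0% higher and 4.0% lower, against 3.43% and 6.06% of all tested genes, and the lower share is near the latter. Siglech and Flt3 lost their calls without HDM-1 or HDM-2 or any SF-3-030+HDM library, and Siglech also without HDM-3 (0.0510 to 0.119).

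Tissue remodelling genes were called higher at 9.52% and lower at 7.14%, against 3.43% and 6.06% of all tested genes. The lower share is near that of all tested genes. Of 42 extracellular matrix and remodelling genes 4 were called higher and 3 lower (median 0.04, or -0.13 with upper-quartile scaling; 1 and 1 without the libraries with Y-linked reads). Mmp13, a collagenase named after its values were seen, read 18.1, 13.3 and 18.8 CPM in SF-3-030+HDM libraries, against 4.68, 2.38 and 6.38 CPM in HDM libraries (1.91 ± 0.51, adjusted p = 0.041). Eln, elastin, read 160, 174 and 207 CPM, against 572, 259 and 828 CPM in HDM (-1.60 ± 0.31, adjusted p = 0.0113). Spp1, given above, kept its call without each single library. It lost it with a term for Y-linked expression, with the GC correction and without the libraries with Y-linked reads. Mmp12 and Mmp13 lost theirs without any HDM or SF-3-030+HDM library, and Eln without SF-3-030+HDM-1 or SF-3-030+HDM-2 (0.0560 to 0.128). Adam8, a surface protease (0.96 ± 0.24), was called higher and Col12a1 (-0.95 ± 0.25) and Mmp3 (-1.01 ± 0.27) lower, and all 3 lost their calls without HDM-1 or HDM-2 or any SF-3-030+HDM library, Mmp3 also without HDM-3 (0.0542 to 0.154). Col1a1, of the main fibrillar collagen, overlapped (-0.43 ± 0.31, adjusted p = 0.391). Of 17 smooth muscle contractile genes edgeR called none (median 0.12, or -0.06 with upper-quartile scaling; 1 higher without the libraries with Y-linked reads), 1 was higher and 1 lower at an unadjusted p under 0.05, DESeq2 called 1 lower and limma-voom none. Of 23 receptors that set airway tone Bdkrb2 and Ptger3 were called higher and none lower (median 0.32; 1 higher without those libraries). Bdkrb2, the bradykinin B2 receptor, read 22.6, 28.5 and 25.4 CPM, against 8.04, 6.37 and 8.36 CPM in HDM and 16.1 ± 2.73 CPM in PBS (1.74 ± 0.18, adjusted p = 0.00016), and kept its call under every alternative run. Ptger3, a prostaglandin E2 receptor (1.38 ± 0.34), lost its call without any HDM or SF-3-030+HDM library (0.0558 to 0.106).

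Of 18 fibroblast genes Cthrc1 (1.55 ± 0.32) and Wnt2 (0.91 ± 0.21) were called higher and the matrix genes Dcn (-1.06 ± 0.28), Lum (-1.28 ± 0.35) and Mfap5 (-1.26 ± 0.26) lower (median -0.03; 1 and 1 without the libraries with Y-linked reads). Of 24 endothelial genes Aplnr (0.89 ± 0.22) was called higher and Nos3, endothelial nitric oxide synthase, lower (-0.94 ± 0.21), with a median of 0.09 (-0.04 with upper-quartile scaling) and no call without those libraries. The endothelial share, 4.17% in each direction, is near that of all tested genes (3.43% higher and 6.06% lower). Each of these 7 genes lost its call without single libraries (0.0534 to 0.146): Cthrc1 without HDM-2 or SF-3-030+HDM-3, Mfap5 without HDM-2 or SF-3-030+HDM-1 or SF-3-030+HDM-2, and the other 5 without any SF-3-030+HDM library and at least 2 HDM libraries, Lum also without PBS-4. Of 31 cell cycle genes Pcna (0.55 ± 0.15) and Rrm2 (0.94 ± 0.27) were called higher (median 0.48; none without those libraries), and both lost the call without PBS-4 or any HDM or SF-3-030+HDM library, Pcna also without PBS-2 (0.0532 to 0.142).

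Of 18 guanylate-binding protein and immunity-related GTPase genes 4 were called higher and none lower (median 0.06, or -0.08 with upper-quartile scaling; 3 higher without the libraries with Y-linked reads). Gbp4, a defence GTPase, read 185, 176 and 164 CPM in SF-3-030+HDM libraries, against 35.9, 22.5 and 27.9 CPM in HDM libraries (2.59 ± 0.26, adjusted p = 0.000133). Gbp11 (3.20 ± 0.34, adjusted p = 0.000198) and Gbp2b (5.91 ± 0.38, adjusted p = 6.91e-06) rose with it and, like Gbp4, kept their calls under every alternative run. Gbp10 (1.46 ± 0.38) lost its call without HDM-1 or HDM-3 or any SF-3-030+HDM library (0.0833 to 0.114), and genes of this family are close copies. Of 31 interferon-stimulated genes Ifi44l and Mx2 (1.11 ± 0.28) were called higher and Ifit1bl1 lower (-1.79 ± 0.42), with a median of -0.31 (0.28, with 1 higher, without those libraries). These shares, 6.45% higher and 3.23% lower, are near the 3.43% and 6.06% of all tested genes. Mx2 lost its call without any HDM or SF-3-030+HDM library and Ifit1bl1 without HDM-2 or any SF-3-030+HDM library (0.0570 to 0.131).

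Of 17 MHC class I and antigen processing genes 2 were called higher and 3 lower (median -0.19; 1 higher without the libraries with Y-linked reads). H2-Q10, a secreted class I molecule, read 79.6, 88.0 and 104 CPM in SF-3-030+HDM libraries, against 8.36, 5.74 and 9.48 CPM in HDM libraries (3.53 ± 0.33, adjusted p = 7.66e-05). H2-K1 read 1369, 1498 and 1652 CPM, against 2618, 2904 and 3748 CPM in HDM (-1.05 ± 0.21, adjusted p = 0.0129). H2-Q4 (0.87 ± 0.20) was higher, and H2-Q6 (-0.74 ± 0.20) and H2-Q7 (-1.34 ± 0.21, adjusted p = 0.00302) lower. H2-K1 lost its call without SF-3-030+HDM-1 or SF-3-030+HDM-2, H2-Q4 without HDM-1 or HDM-2 or SF-3-030+HDM-2 or SF-3-030+HDM-3, and H2-Q6 without any HDM or SF-3-030+HDM library (0.0578 to 0.154). MHC alleles differ between strains and from the C57BL/6J sequence of GRCm38, and what that does to these counts was not tested. Of 12 MHC class II presentation genes H2-DMb2 was called higher (0.92 ± 0.25; 0.0592 to 0.131 without PBS-4 or any HDM or SF-3-030+HDM library) and none lower (median -0.51; none without the libraries with Y-linked reads).

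Marker lists of muscle, fat, blood, thymus and oesophageal or tracheal tissue differed in direction. Of 15 heart muscle genes 7 were called lower and 1 higher (median -1.76), of 12 adipocyte genes 7 lower and 1 higher (-1.61), of 11 skeletal muscle genes 4 lower (-1.35) and of 12 erythroid and platelet genes 3 lower (-0.80). Without the libraries with Y-linked reads the lower calls came to 1, 6, 0 and 1. No gene of the 7 thymocyte genes (median -0.01) or of the 10 oesophageal and tracheal squamous and cartilage genes (median 0.44) was called by edgeR, with those libraries or without them. Cidec, a lipid droplet protein, read 1.99, 0.538 and 1.24 CPM in SF-3-030+HDM libraries, against 18.2, 12.8 and 6.98 CPM in HDM libraries and 22.3 ± 8.69 CPM in PBS (-3.36 ± 0.52, adjusted p = 0.00271). Mb, myoglobin, read 3.54, 0.644 and 2.97 CPM, against 22.3, 18.7 and 24.8 CPM in HDM (-3.20 ± 0.50, adjusted p = 0.0028). Cidec, Mb and the fat genes Plin1 (-2.02 ± 0.38) and Cfd (-2.54 ± 0.48) kept their calls under every alternative run, so the fat and heart genes fell alongside the lung genes above, and their part in those results was not tested.

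The heart list summed to 370, 240 and 306 CPM in SF-3-030+HDM libraries, against 540, 446 and 651 CPM in HDM libraries and 537 to 1158 CPM in PBS libraries, and the adipocyte list to 293, 272 and 279 CPM, against 402, 353 and 356 CPM in HDM libraries and 330 to 505 CPM in PBS libraries. The other heart genes called lower were Myl7, Myl4, Myl3, Tnni3, Sln and Mybpc3 (-1.95 to -1.35), and Myh7, a slow myosin, went the other way (1.55 ± 0.28, adjusted p = 0.00699). The calls of Myl7, Myl4 and Myh7 hung on no single library, and Tnni3, Myl3, Sln and Mybpc3 lost theirs without SF-3-030+HDM-2, Myl3 and Sln also without SF-3-030+HDM-3 and Mybpc3 without SF-3-030+HDM-1 (0.0525 to 0.0844). Myh7 lost its call with a term for Y-linked expression or for olfactory and vomeronasal background. Without the libraries with Y-linked reads, Myl7, Myl4, Myh7, Tnni3, Myl3, Sln and Mybpc3 all lost their calls. The other fat genes called lower were Adipoq, Retn, Plin4 and Lep, which had no reads in SF-3-030+HDM and 0.393, 0.36 and 0.193 CPM in HDM libraries, and Cidea of brown fat was higher (1.64 ± 0.42). Adipoq and Retn lost their calls without SF-3-030+HDM-2 or SF-3-030+HDM-3, Adipoq also without HDM-1, Lep without SF-3-030+HDM-1 or SF-3-030+HDM-2, Plin4 without PBS-4 or any HDM or SF-3-030+HDM library, and Cidea without PBS-4, HDM-1 or HDM-3 or SF-3-030+HDM-1 or SF-3-030+HDM-3 (0.0503 to 0.153). The skeletal calls were Ckm, Myh1, Myh2 and Myh8, the last 3 at 3, 1 and 2 counts over the SF-3-030+HDM group, against 58, 45 and 95 counts over the HDM group, which are ratios of 20.8 (6.78 to 104), 48.5 (8.27 to 1960) and 51.2 (13.8 to 429) lower. Myh8 kept its call without each single library, and Ckm, Myh1 and Myh2 did not (0.0554 to 0.0844): Ckm lost it without HDM-2 or HDM-3 or SF-3-030+HDM-2 or SF-3-030+HDM-3, Myh1 without SF-3-030+HDM-1 or SF-3-030+HDM-2, and Myh2 without HDM-2 or SF-3-030+HDM-2 or SF-3-030+HDM-3. The platelet genes were Ppbp, Gp1bb (-1.38 ± 0.35) and Itga2b (-1.35 ± 0.37), and Gp1bb and Itga2b lost their calls without HDM-2 or HDM-3 or any SF-3-030+HDM library, Itga2b also without PBS-4 (0.0582 to 0.152).

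**Figure D5:**
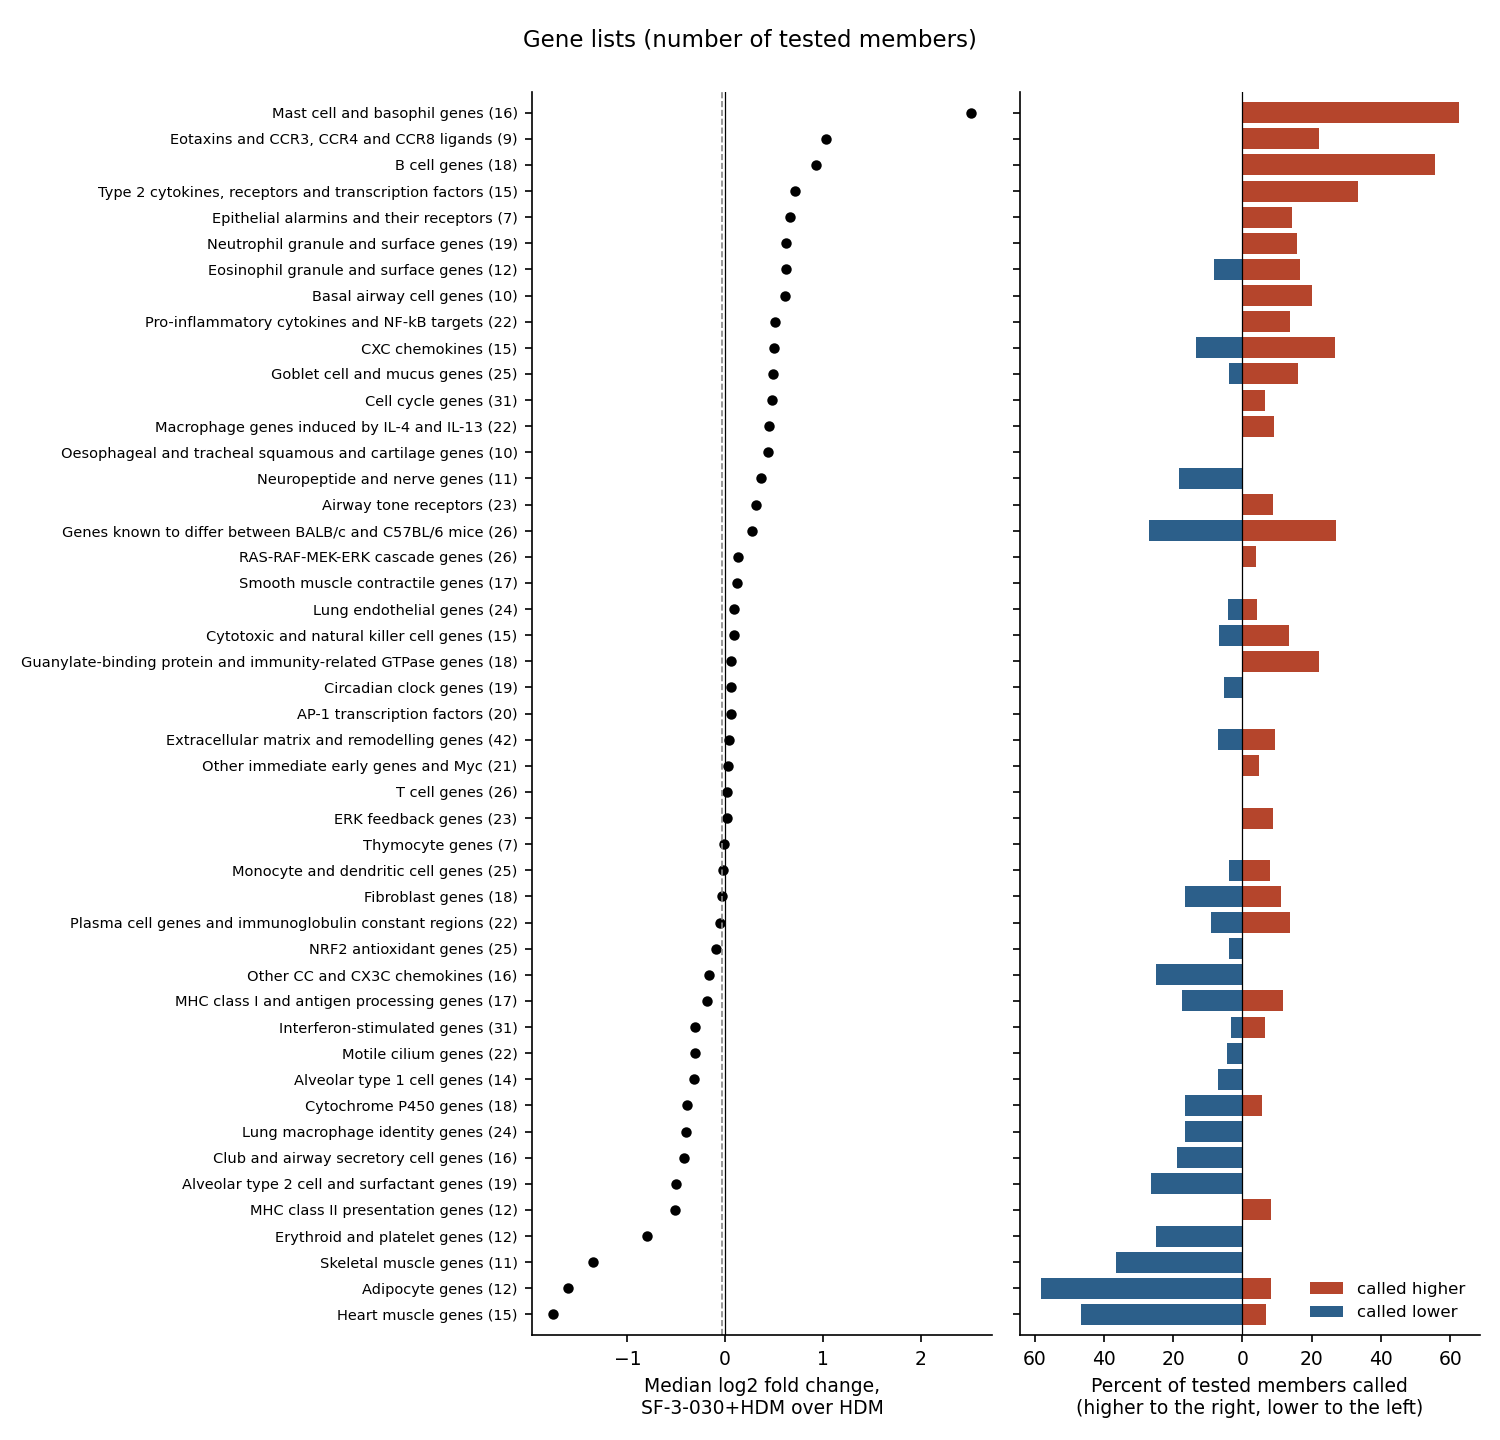
Left, the median log2 fold change of SF-3-030+HDM over HDM for each gene list other than the Y-linked genes, with the number of tested members in brackets and a dashed line at the median of all tested genes; right, the percent of tested members called higher (to the right) or lower (to the left). Mast cell genes stand highest, at 2.52 with 62.5% called higher, and heart muscle genes lowest, at -1.76.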

How the data were processed

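Lung RNA-seq libraries of 10 mouse samples were deposited as 1 table of expected counts per gene, made by the authors. The submitters' processing notes name GRCm38 as the build, with STAR 2.5.2b and Trimmomatic 0.36. Which tool and annotation gave the counts, and whether strand was used, is not stated there, so reads of overlapping or antisense genes cannot be told apart. The table held 53342 genes, 34.4% of its cells were blank and read as 0, and 88.5% of filled cells were not whole to within 0.001. No column of another series was found. Expected counts were rounded and tested with edgeR 4.0.16 (quasi-likelihood F test, filterByExpr, TMM scaling, a term per group over all 10 libraries, two-sided, Benjamini-Hochberg over 26235 genes, threshold 0.05) in R 4.3.3. Log2 fold changes were computed from the deposited expected counts and are SF-3-030+HDM over HDM. CPM was computed from the deposited counts over each library's total. DESeq2 1.42.0, limma-voom 3.58.1 and other settings were alternatives. Counting intervals and floors cover counting error only.

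Genes named are the 12 genes that rose most and the 12 that fell most, among called genes without overlap and with at least 1 CPM in the higher group, the 8 of highest level in each direction (both without predicted genes, pseudogenes and variable segments of antibodies or T cell receptors), up to 4 members of each of 48 lists and a panel of 27 genes; other called list members are named too, chosen after their values were seen, and a few genes that this rule names are not reported here. The members and lists were chosen with earlier results of these data known. Gene types and positions come from GENCODE M21, which held 53237 of the identifiers.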

Additional observations from a re-analysis of the deposited data

Results flagged for a closer look

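Ddx3y, a Y-linked gene used here to check the labels and to set libraries apart, had reads in 3 libraries labelled female: 31.5 CPM in HDM-2, 20.4 CPM in HDM-3 and 30.2 CPM in PBS-2. The other 7 libraries, the 3 of SF-3-030+HDM included, had at most 0.575 CPM. The part of these libraries in the results was not tested beyond the fits without them and with a term for them.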

How the results depend on the processing

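Against 901 genes higher and 1590 lower, DESeq2 called 1529 and 3773, a term for Y-linked expression left 450 and 450, dropping the 3 libraries with Y-linked reads 265 and 278, and a threshold of 0.01 298 and 297. Upper-quartile scaling left 561 higher, limma-voom 535 lower, no filter 2627 lower and a filter of 1 CPM in 3 libraries 1023 lower. A term for olfactory and vomeronasal background gave 613 higher and 737 lower, 362 and 606 of them shared with the main calls. Ccl11, Ccl8, Ighe, Spry4, Il4, Il5ra, Tff1 and Cxcl1 were among the genes named above that lost their calls with it. Leaving out 1 library gave 323 to 1458 higher and 301 to 2263 lower, with the fewest without SF-3-030+HDM-1 and SF-3-030+HDM-2; where 2 libraries remain in a group, its spread is taken from all groups. The replicate block gave 390 higher and 406 lower. Samples of the same number correlated at 0.102, -0.193 and -0.08 in their deviations from the group means. With 3 libraries in each group, these values cannot settle whether the numbers pair the samples. The median of all genes moved to -0.19 with upper-quartile scaling, -0.25 with no filter and -0.12 with the GC correction.

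The sign of some uncalled genes turned, on the log2 scale. With a term for Y-linked expression it was 0.92 for Ighg1, 0.69 for Fos, 0.44 for Egr1, -0.25 for Chil3 and 0.11 for Col1a1, and without the libraries with Y-linked reads 0.34 for Ighg1, 0.042 for Fos, 0.064 for Egr1, 0.17 for Mapk3 and 0.25 for Col1a1. With the background term it was -0.77 for Muc5ac, -0.16 for Fosl1, 0.030 for Mapk3 and -0.31 for Scgb1a1, and with the GC correction -0.088 for Chil3. Over the fits without 1 library, Ighg1 ran from -0.34 to 0.24 and was also above 0 without SF-3-030+HDM-1 (0.027) and SF-3-030+HDM-3 (0.18), Fosl1 from -0.045 (without SF-3-030+HDM-2) to 0.35, Chil3 from -0.095 (without SF-3-030+HDM-3) to 0.40, and Col1a1 from -0.65 to 0.0047 (without HDM-3). The cause was not tested. Genes under 1 CPM are the least certain, since the reads taken as background differ between the groups.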

Other observations

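Other highly read genes were lower with the compound. Ly6e, an interferon-induced surface protein, read 589, 583 and 616 CPM in SF-3-030+HDM libraries, against 1323, 1678 and 2093 CPM in HDM libraries (log2 -1.53 ± 0.20, edgeR adjusted p = 0.000919). It kept its call without each single library. The call was lost without the libraries with Y-linked reads, HDM-2 and HDM-3 among them. Lars2, the mitochondrial leucyl-tRNA synthetase, read 521, 318 and 752 CPM, against 2200, 1442 and 1480 CPM in HDM (-1.68 ± 0.32, adjusted p = 0.00961; 0.0584 without SF-3-030+HDM-1). The share of ribosomal RNA was lower in SF-3-030+HDM libraries too, and its part in the Lars2 counts was not tested. Rplp0, a ribosomal stalk protein, fell (-0.86 ± 0.20, adjusted p = 0.0284), and lost its call without HDM-2 or HDM-3 or SF-3-030+HDM-1 or SF-3-030+HDM-2 (0.0811 to 0.119). Of 81 ribosomal protein genes none was called higher and 7 lower, against 3.43% higher and 6.06% lower of all tested genes. Their median was 0.13, or -0.05 with upper-quartile scaling and 0.36 without the libraries with Y-linked reads.

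Of 25 NRF2 antioxidant genes Osgin1 was called lower (-1.0 ± 0.18, adjusted p = 0.00623; 0.0597 without SF-3-030+HDM-2), the 1 call of the list, against 6.06% lower of all tested genes. The list median was -0.10; without the libraries with Y-linked reads it was 0.11, with no call. Of 19 circadian clock genes Nr1d1, the repressor REV-ERB alpha, was called lower (-1.06 ± 0.23, adjusted p = 0.0178). This 1 call, 5.26% of the list, is near the 6.06% of all tested genes called lower. The list median was 0.06 and turned to -0.06 with upper-quartile scaling. Nr1d1 lost its call without HDM-2 or any SF-3-030+HDM library (0.0668 to 0.0798). The clock list had no call without the libraries with Y-linked reads, at a median of -0.36. Of 11 neuropeptide and nerve genes Uchl1 (-2.10 ± 0.35) and Tubb3 (-3.07 ± 0.65) were called lower, at a list median of 0.37, and Tubb3 lost its call without any SF-3-030+HDM library (0.0568 to 0.0786). Both lost their calls without the libraries with Y-linked reads (0.0978 for Uchl1 and 0.388 for Tubb3), where 1 gene of the list was higher. EdgeR called none of 7 thymocyte genes (1 lower at an unadjusted p under 0.05; none by DESeq2 or limma-voom), none of 10 oesophageal and tracheal genes (2 higher and 1 lower unadjusted; 2 higher by DESeq2) and none of 4 Y-linked genes (4 lower unadjusted; 4 lower by DESeq2).

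Calls were dense in some stretches of the genome, picked after their values were seen, against 9.49% of all tested genes called. There were 1243 windows of 1 Mb with at least 8 tested genes. The densest were on chromosome 2, where most calls were receptors of smell (6 lower of 9), and on chromosome 9, with predicted genes (11 lower of 17). Neither had a higher call. The window of immunoglobulin heavy chain variable segments from 115000001 on chromosome 12 had 6 genes higher and 15 lower of 39. That of Ccl19, Ccl21a and their copies from 42000001 on chromosome 4 had 12 lower of 23. The windows on chromosomes 12 and 4 hold gene copies that differ between strains, and the part of that in the counts was not tested.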
